A study of Arabis alpina with 18 samples.

Results

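The genes described here are PR1, RBOHD, NAP and SAG21, 4 of the 34220 genes in the count table of an RNA sequencing study of Arabis alpina, a perennial relative of Arabidopsis. They were chosen by Arabidopsis locus: a count row belonged to a gene where the authors' deposited lists of changed genes paired its ID with AT2G14610 (PR1), AT5G47910 (RBOHD), AT1G69490 (NAP) or AT4G02380 (SAG21). Each locus had 1 row: Aa_G739930h1 for PR1, Aa_G103490h1 for RBOHD, Aa_G452770h1 for NAP and Aa_G99690h1 for SAG21. All 4 carry a name because the authors listed them as higher in eop055 than in pep1-1 leaves, and SAG21 also stands in their list of genes lower in eop055 than in pep1-1 apices at 5 weeks. The p-values given for those comparisons are therefore no independent evidence of their direction.

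In Arabidopsis, PR1 encodes a secreted protein whose transcript is the usual marker of salicylic acid signalling and systemic acquired resistance. RBOHD encodes the plasma membrane NADPH oxidase that makes the extracellular oxidative burst when a pattern receptor is activated, through phosphorylation by kinases such as BIK1 and calcium-dependent protein kinases. NAP is a NAC transcription factor that promotes leaf senescence, in part through SAG113, a protein phosphatase gene. SAG21 is a small late embryogenesis abundant protein of mitochondria, whose transcript rises early in senescence and under oxidative stress.

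The 18 libraries fell into 6 groups of 3: leaves 5 and 6 of 5-week-old plants, dissected shoot apices at 5 weeks and dissected shoot apices at 3 weeks, each from the eop055 mutant and from the pep1-1 mutant. Plants of both genotypes were of the accession Pajares and were grown in long days. PEP1 corresponds in A. alpina to the Arabidopsis floral repressor FLC. The sources used here do not give the lesion of eop055 or say whether eop055 also carries pep1-1. The origin of the replicates, from single plants or pools, is not stated in the labels, and the spread behind each p-value is that of the libraries, which may be technical in part.

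Gene counts came to between 7987096 and 14132723 per library. Expression is given as counts and as CPM, counts relative to the library total, scaled by TMM factors, which were 0.651 to 0.730 in leaves and 1.15 to 1.27 in apices. Transcript lengths were not used, so levels are compared between groups and not between genes. The biological coefficient of variation was 17.1% among eop055 leaves, against 7.03% among pep1-1 leaves, and 5.60 to 8.48% in the apex groups. The marker lists for leaf mesophyll, shoot meristem, vascular tissue, epidermis and root had 0 named genes, so the tissue labels were not checked by them. Of 7 flower markers, 6 carried names; they summed to 0.526 to 0.673 CPM in eop055 and 0.306 to 0.921 CPM in pep1-1 leaves, to 20.7 to 52.7 CPM in eop055 and 3.32 to 3.81 CPM in pep1-1 apices at 5 weeks, and to 3.08 to 4.30 CPM in eop055 and 4.81 to 6.30 CPM in pep1-1 apices at 3 weeks.

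Leaves held the highest level of each of the 4 genes, and eop055 leaves lay above pep1-1 leaves in every library. By group means, PR1, NAP and SAG21 were each highest in eop055 leaves and next highest in pep1-1 leaves, with little or no signal in 5-week apices. RBOHD differed from them in that its transcript was also abundant in every apex library. In whole tissue, fewer cells expressing a gene and less RNA per cell cannot be told apart.

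**Figure D1:**
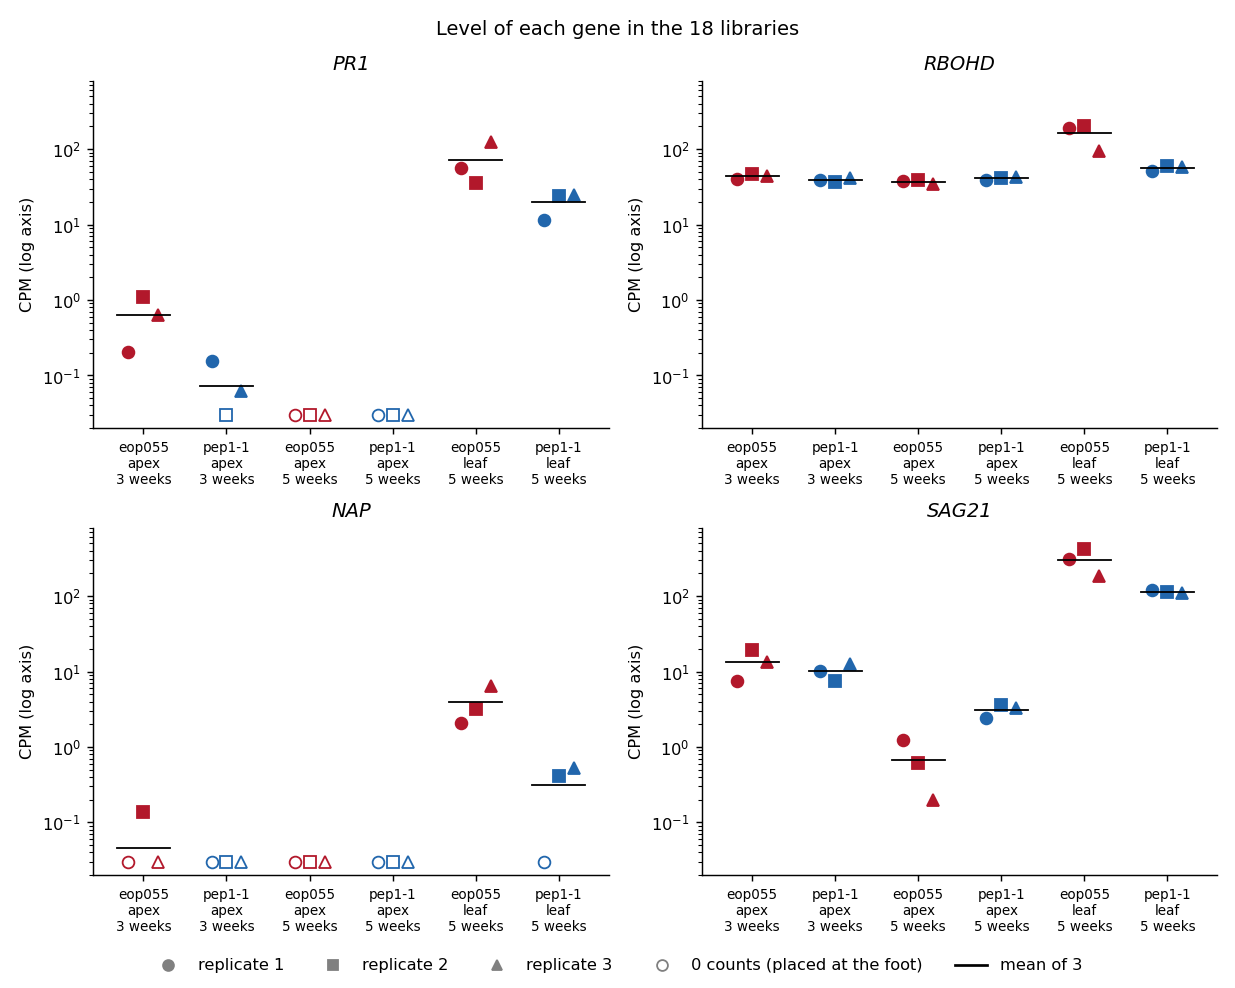
Level of each gene in all 18 libraries, in CPM on a log axis, with eop055 left of pep1-1 for leaves, apices at 5 weeks and apices at 3 weeks; marker shape gives the replicate, black bars the mean of 3, and open symbols at the foot a count of 0. PR1 and NAP have no count in any 5-week apex, SAG21 spans 0.197 to 416 CPM, and RBOHD stays between 34.5 and 46.9 CPM in the apices.

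The first comparison asked how the genes differed between eop055 and pep1-1 leaves. All 4 were higher in eop055 leaves by edgeR's quasi-likelihood F test with Benjamini-Hochberg adjustment over the 21275 genes tested (adjusted p under 0.05). Among all genes tested, 15% were called higher and 11.6% lower in that comparison, 26.6% in all. The libraries of the 2 genotypes did not overlap for any of the 4 genes; 19.3% of all genes tested were separated in that direction.

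PR1 had 518, 263 and 1174 counts in the eop055 leaf libraries, against 113, 235 and 239 counts in the pep1-1 leaf libraries. On the CPM scale these were 56.7, 35.4 and 123 in eop055 leaves, against 11.6, 24.0 and 25.0 in pep1-1 leaves. All eop055 leaves lay above all pep1-1 leaves, but eop055 replicate 2 came close to the upper pep1-1 libraries. PR1 averaged 71.8 ± 45.9 CPM in eop055 leaves and 20.2 ± 7.48 CPM in pep1-1 leaves (SD, n = 3 each), a log2 fold change of 1.84 ± 0.48 (SE; edgeR adjusted p = 0.023). Of the 4 genes it was the least firmly separated: the call was lost without pep1-1 leaf replicate 1 (log2 fold change 1.56, edgeR adjusted p = 0.0764) or without pep1-1 leaf replicate 2 (1.98, edgeR adjusted p = 0.0517). The call was also lost when only the leaf groups were fitted (1.84, edgeR adjusted p = 0.117). Without eop055 leaf replicate 3 the fold fell to 2.30, against 3.58 with all libraries, and the call held (edgeR adjusted p = 0.0369).

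RBOHD had 1729, 1512 and 910 counts in the eop055 leaf libraries, against 501, 583 and 560 counts in the pep1-1 leaf libraries. These were 189, 203 and 95.6 CPM in eop055 leaves, against 51.3, 59.4 and 58.6 CPM in pep1-1 leaves. The pep1-1 libraries lay close together, and the lowest eop055 library, replicate 3, was still above all of them. RBOHD averaged 163 ± 58.6 CPM in eop055 leaves and 56.4 ± 4.50 CPM in pep1-1 leaves (SD, n = 3 each), a log2 fold change of 1.53 ± 0.21 (SE, edgeR adjusted p = 0.000137). That SE comes from the fit over all 18 libraries, although eop055 leaves varied more than the other groups. Over the other edgeR and DESeq2 settings with all libraries kept, the adjusted p rose to at most 0.0354.

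NAP was the least abundant in reads, with 19, 24 and 61 counts in the eop055 leaf libraries, against 0, 4 and 5 counts in the pep1-1 leaf libraries. In CPM it stood at 2.08, 3.23 and 6.41 in eop055 leaves, against 0, 0.408 and 0.523 in pep1-1 leaves. NAP passed the filter on low counts only through the eop055 leaf libraries, so being separated there was in part a condition of being tested. It averaged 3.91 ± 2.24 CPM in eop055 leaves and 0.310 ± 0.275 CPM in pep1-1 leaves (SD, n = 3 each), a log2 fold change of 3.63 ± 0.67 (SE; edgeR adjusted p = 0.000935). The summed counts, 104 in eop055 and 9 in pep1-1 leaves, gave a ratio of 12.9 with an exact Clopper-Pearson 95% interval of 6.54 to 29.0, which covers counting error only. DESeq2 did not call NAP (log2 fold change 3.67, DESeq2 adjusted p = 0.325), and the fold was 8.32 without pep1-1 leaf replicate 1 and 8.29 without eop055 leaf replicate 3, against 12.4 with all libraries.

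SAG21 had 2847, 3092 and 1775 counts in the eop055 leaf libraries, against 1191, 1096 and 1043 counts in the pep1-1 leaf libraries. The levels were 312, 416 and 187 CPM in eop055 leaves, against 122, 112 and 109 CPM in pep1-1 leaves. As for RBOHD, eop055 replicate 3 was the lowest of its group and still above every pep1-1 library. SAG21 averaged 305 ± 115 CPM in eop055 leaves and 114 ± 6.71 CPM in pep1-1 leaves (SD, n = 3 each), a log2 fold change of 1.41 ± 0.30 (SE, edgeR adjusted p = 0.00393). Over the other edgeR and DESeq2 settings with all libraries kept, the adjusted p rose to at most 0.0415.

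**Figure D2:**
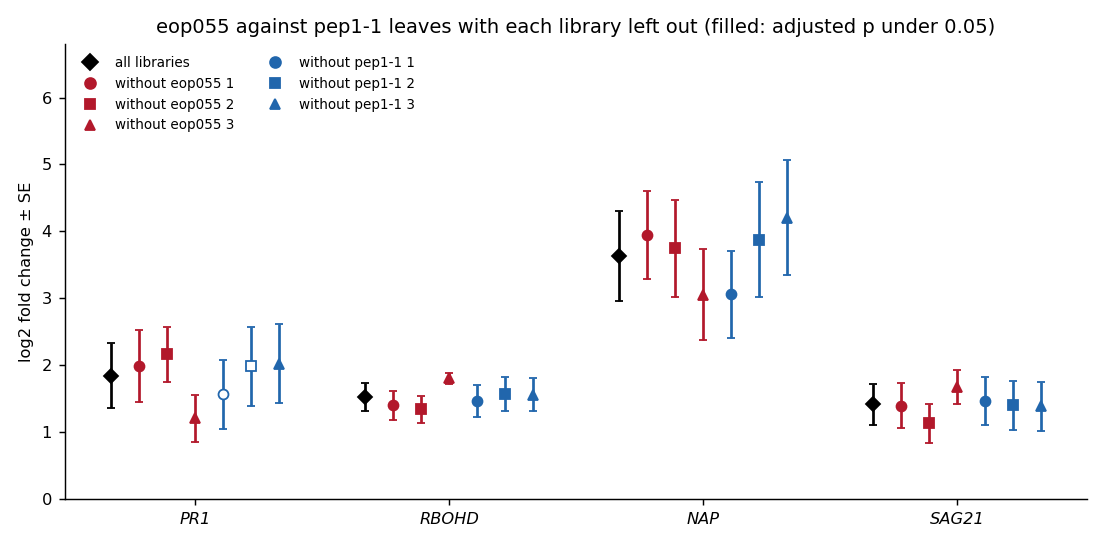
Log2 fold change of each gene, eop055 over pep1-1 leaves, with its SE, with all libraries and with each leaf library left out in turn; filled symbols have an edgeR adjusted p under 0.05. RBOHD, NAP and SAG21 are filled at every point, and PR1 is open without pep1-1 replicate 1 (1.56) and without pep1-1 replicate 2 (1.98).

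The 4 genes did not vary together among the eop055 leaves. Replicate 3 was the highest library for PR1, at 2.18 times replicate 1 and 3.49 times replicate 2, and for NAP, at 3.08 times replicate 1 and 1.99 times replicate 2. The same replicate was the lowest for RBOHD, at 0.505 times replicate 1 and 0.470 times replicate 2, and for SAG21, at 0.599 times replicate 1 and 0.448 times replicate 2. Set against the pep1-1 leaf mean, the eop055 replicates 1, 2 and 3 stood at 2.81, 1.75 and 6.12 times for PR1 and at 6.70, 10.4 and 20.7 times for NAP. For RBOHD the same ratios were 3.35, 3.60 and 1.69, and for SAG21 they were 2.73, 3.64 and 1.63. Over all genes tested, replicate 3 was the highest of the eop055 leaves for 34.3% and the lowest for 33% of genes. Among the 3187 genes called higher in eop055 leaves it was the highest for 16.5% and the lowest for 65.2%, so RBOHD and SAG21 stood with the more frequent order and PR1 and NAP with the less frequent one.

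Touch and wounding genes moved with the same libraries. All 7 named genes of that list, drawn up for responses to touch and wounding, were called higher in eop055 leaves, beside 15% of all genes. They include TCH4, LOX3 and the jasmonate repressor gene JAZ1. Of the 12 genes listed, only those in the authors' lists of changed genes carried names. The share over all genes is therefore no like baseline for that count. LOX3, a jasmonate biosynthesis gene, had a log2 fold change of 1.70 ± 0.22 (SE; edgeR adjusted p = 5.72e-05). Their summed level was 1488, 2629 and 526 CPM in eop055 leaf replicates 1, 2 and 3, against 249, 321 and 341 CPM in pep1-1 leaf replicates 1, 2 and 3. RBOHD and SAG21 followed that order of the eop055 replicates and PR1 and NAP did not; the part of handling in any of these results was not tested. The list's count was 2 of 7 with only the leaf groups fitted and 4 of 7 without eop055 leaf replicate 2.

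**Figure D3:**
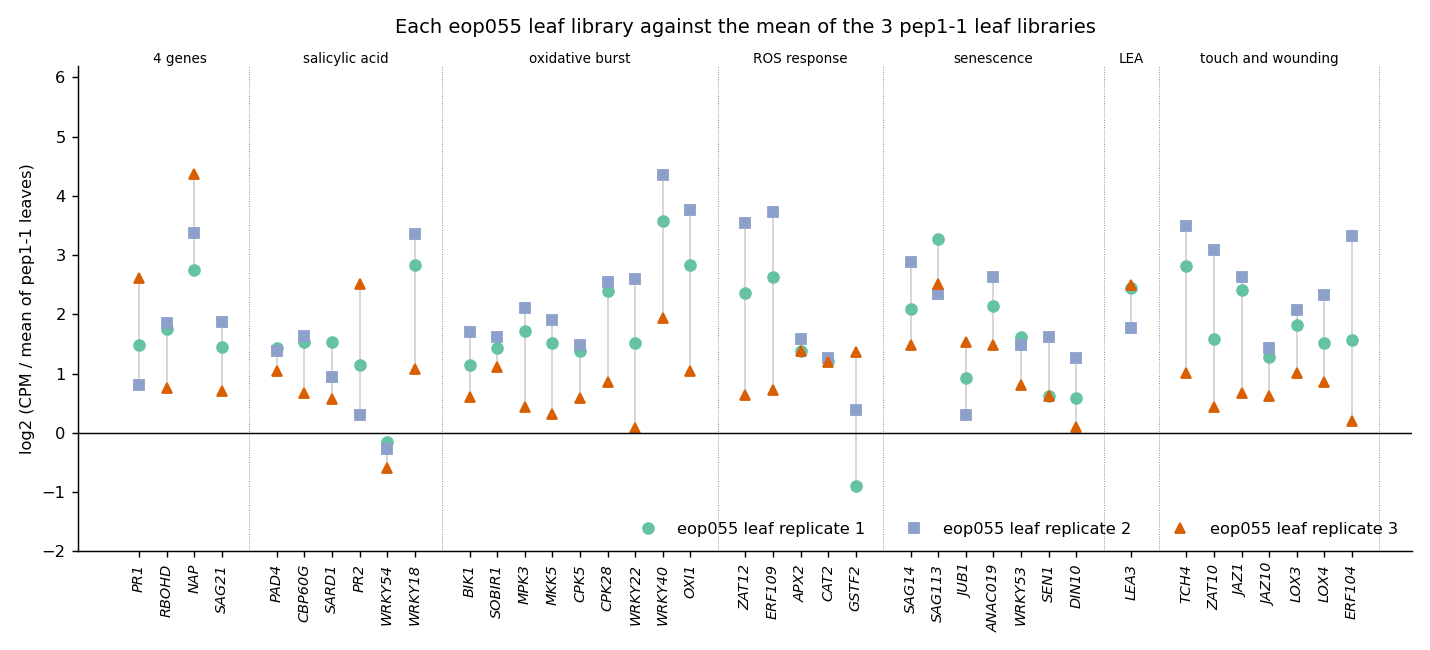
Log2 ratio of each eop055 leaf library to the mean of the 3 pep1-1 leaf libraries, for the 4 genes and the other named genes of each list; symbol and colour give the eop055 replicate and the line at 0 is the pep1-1 mean. Replicate 3 is the top point for PR1, NAP, PR2, GSTF2, JUB1 and LEA3 and the bottom point for RBOHD, SAG21 and every gene of the oxidative burst and the touch and wounding lists.

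Of 28 salicylic acid and systemic acquired resistance genes listed, 6 beside PR1 carried names, and 4 of these rose in eop055 leaves, 0 fell and 2 were not called. PAD4, a lipase-like regulator that acts with EDS1 upstream of salicylic acid, had 207, 200 and 158 CPM in eop055 leaves, against 79.7, 74.3 and 75.3 CPM in pep1-1 leaves, a log2 fold change of 1.30 ± 0.13 (SE; edgeR adjusted p = 2.13e-06). CBP60G and SARD1, transcription factors that activate the salicylic acid synthesis gene ICS1, changed by log2 folds of 1.34 and 1.06, and WRKY18 by 2.70. PR2, a glucanase gene and, like PR1, a downstream marker of salicylic acid, had 35.9, 20.04 and 92.5 CPM in eop055 leaves, against 12.7, 16.7 and 19.4 CPM in pep1-1 leaves. Its order of eop055 replicates was that of PR1, and it was not called (log2 fold change 1.62 ± 0.56 SE, edgeR adjusted p = 0.0682). WRKY54 had a log2 fold change of -0.33 (edgeR adjusted p = 0.108). The median over the 6 genes was 1.32, against -0.01 over all genes tested. The other 5 genes of the list had replicate 3 as the lowest eop055 leaf.

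Of 35 oxidative burst and pattern-triggered immunity genes listed, 9 beside RBOHD carried names. All 9 were called higher in eop055 leaves, with a median log2 fold change of 1.57. Each was named because the authors had called it in some comparison of these libraries. The 15% of all genes tested called higher in leaves is therefore no like baseline. BIK1, the receptor-like cytoplasmic kinase that phosphorylates RBOHD, rose by 1.21 ± 0.18 on the log2 scale (SE; edgeR adjusted p = 4.89e-05). SOBIR1, a receptor kinase that partners receptor-like proteins, rose by 1.40 ± 0.19 (SE; edgeR adjusted p = 0.000124). CPK5, a calcium-dependent kinase that also phosphorylates RBOHD, rose by 1.20 ± 0.17 (SE; edgeR adjusted p = 0.000196). CPK28, a calcium-dependent kinase that promotes the turnover of BIK1, had 440, 491 and 152 CPM in eop055 leaves, against 79.4, 88.1 and 83.3 CPM in pep1-1 leaves. The list thus held genes that raise and genes that limit the burst. Only 4 of the 9 were called when only the leaf groups were fitted, and replicate 3 was the lowest eop055 leaf for all 9.

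Of 16 genes of the response to and removal of reactive oxygen listed, 5 carried names, and 3 rose in eop055 leaves while 2 were not called. CAT2, the main leaf catalase of Arabidopsis, had 2189, 2273 and 2150 CPM in eop055 leaves, against 848, 987 and 993 CPM in pep1-1 leaves, a log2 fold change of 1.23 ± 0.14 (SE; edgeR adjusted p = 1.81e-05). Its eop055 replicates lay within a narrow range, unlike those of RBOHD. APX2, an ascorbate peroxidase gene, and ZAT12, a zinc finger gene induced by many stresses, rose by 1.44 and 2.60 on the log2 scale. ERF109 had a log2 fold change of 2.78 (edgeR adjusted p = 0.0682) and GSTF2 of 0.55 (edgeR adjusted p = 0.819), the last of these turning to -0.17 without eop055 leaf replicate 3.

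Of 38 leaf senescence genes listed, 7 beside NAP and SAG21 carried names, and 4 rose in eop055 leaves, 0 fell and 3 were not called. ANAC019, a NAC factor of the stress and abscisic acid response, rose by 2.15 ± 0.36 on the log2 scale (SE; edgeR adjusted p = 0.000143). SAG113, a target of NAP in Arabidopsis, had 2.30, 1.21 and 1.37 CPM in eop055 leaves, against 0.205, 0.408 and 0.105 CPM in pep1-1 leaves, a log2 fold change of 2.72 ± 0.57 (SE; edgeR adjusted p = 0.000946). WRKY53, an early regulator of senescence, and SAG14, a blue copper protein gene, rose by 1.34 and 2.25. The sugar-starvation genes SEN1 and DIN10 had log2 fold changes of 1.02 (edgeR adjusted p = 0.057) and 0.73 (edgeR adjusted p = 0.134). JUB1, a NAC factor that delays senescence, had a log2 fold change of 1.02 (edgeR adjusted p = 0.268) and, like NAP, its highest eop055 leaf in replicate 3. AT1G02820 (LEA3), the 1 named relative of SAG21 among 3 listed, had 17.1, 10.6 and 17.6 CPM in eop055 leaves, against 3.89, 2.55 and 2.93 CPM in pep1-1 leaves, a log2 fold change of 2.28 ± 0.26 (SE; edgeR adjusted p = 1.22e-06), and its highest eop055 leaf was also replicate 3.

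All of these list genes carry names only because the authors had called them in some comparison of these libraries, so their counts are read as descriptions. For the same reason, the 15% of all genes tested called higher in leaves is no like baseline for any list. Of the 28 other list genes called higher in leaves, 15 were called under every alternative tried. Of the 7 list genes not called, 0 kept both that result and their direction under every alternative.

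In apices at 5 weeks the question was whether the genotypes also differed there. Neither RBOHD nor SAG21 was called by edgeR, in a comparison in which 14.5% of all genes tested were called. Without adjustment, SAG21 had an edgeR p under 0.05 and RBOHD did not. The share of all genes under that unadjusted threshold was not counted. PR1 and NAP had 0 counts in all 3 eop055 and all 3 pep1-1 libraries, so neither could be called. A count of 0 allows up to 3 counts over a group, or 0.0650 CPM in eop055 and 0.0805 CPM in pep1-1 apices, so no fold was formed.

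RBOHD had 37.4, 39.0 and 34.5 CPM in eop055 apices at 5 weeks, against 38.6, 41.5 and 42.5 CPM in pep1-1 apices. The ranges overlapped, and the group means of 37.0 ± 2.28 and 40.9 ± 2.04 CPM (SD, n = 3 each, eop055 and pep1-1) gave a log2 fold change of -0.14 ± 0.21 (SE; edgeR adjusted p = 0.738).

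SAG21 had 18, 10 and 3 counts in eop055 apices at 5 weeks, against 38, 36 and 38 counts in pep1-1 apices. These were 1.23, 0.611 and 0.197 CPM in eop055, against 2.42, 3.56 and 3.32 CPM in pep1-1. The libraries did not overlap, as for 15.1% of all genes tested in that direction, and the direction was opposite to that in leaves. SAG21 averaged 0.681 ± 0.522 CPM in eop055 and 3.10 ± 0.604 CPM in pep1-1 (SD, n = 3 each), a log2 fold change of -2.15 ± 0.81 that was not called (SE; edgeR unadjusted p = 0.021, adjusted p = 0.105). The gene was called by DESeq2 (log2 fold change -2.20, DESeq2 adjusted p = 0.000234), by edgeR fitted on the 5-week apices alone (-2.17, adjusted p = 0.000539) and by edgeR without robust dispersions (-2.15, adjusted p = 0.0326). Without eop055 apex replicate 1 the log2 fold change was -2.86 (edgeR adjusted p = 0.11). The 6 named flower markers were higher in the same eop055 apices by the summed levels given above, and their part in the SAG21 values was not tested.

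The pathway lists were largely uncalled in these apices as well, in a comparison in which 14.5% of all genes tested were called. Part of that was a matter of low counts. PR2 and JUB1 had 0 counts in both genotypes, and ANAC019 had 0 in eop055 and 1 in pep1-1, so none of them could be called. CAT2 (8 counts in eop055 and 1 in pep1-1) and SARD1 (7 and 4) were also near the floor. All 9 other named oxidative burst genes, all 5 reactive oxygen genes (ZAT12, ERF109, APX2, CAT2 and GSTF2) and all 7 touch and wounding genes were not called, and of the 6 other salicylic acid genes 1 fell, WRKY54 (log2 fold change -1.33, edgeR adjusted p = 8.16e-06), and PAD4, CBP60G, SARD1, WRKY18 and PR2 were not called. Among the 7 other senescence genes SAG113 rose, with 13.3, 16.1 and 19.97 CPM in eop055 apices, against 2.73, 3.86 and 2.27 CPM in pep1-1 apices (log2 fold change 2.49, edgeR adjusted p = 1.32e-07). SAG113 was thus detected in every 5-week apex library, while NAP had no count there. DIN10, a raffinose synthase gene, fell, with 7.41, 11.1 and 14.4 CPM in eop055 apices, against 51.6, 66.6 and 56.9 CPM in pep1-1 apices (log2 fold change -2.40, edgeR adjusted p = 0.00136). The other 5, ANAC019, WRKY53, SAG14, SEN1 and JUB1, were not called. More genes were called lower when only the 5-week apices were fitted: 3 salicylic acid, 2 touch and wounding, 1 oxidative burst and 2 senescence genes. DESeq2 called 2, 1, 0 and 2 genes of the same lists lower, and 1 reactive oxygen gene, as did edgeR without eop055 apex replicate 2.

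Whether the genotype effect itself differed between leaves and 5-week apices was tested as an interaction in the same fit. For RBOHD the effect in leaves exceeded that in apices by 1.67 ± 0.29 on the log2 scale (SE; edgeR adjusted p = 0.00167). For SAG21 the difference was 3.57 ± 0.85 (SE; edgeR adjusted p = 0.0113). Both were called higher, beside 10.9% of all genes tested (20.1% in either direction), and both stayed called when any 1 library was left out, with ranges of 1.49 to 1.96 for RBOHD and 3.15 to 4.28 for SAG21, the highest SAG21 value being that without eop055 apex replicate 1. The leaf effect is 1 side of this test and was the reason that the genes were named; for SAG21 the authors had listed both sides, so its interaction is no independent evidence. No interaction was formed for PR1 and NAP, whose apex groups at 5 weeks were at 0.

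**Figure D4:**
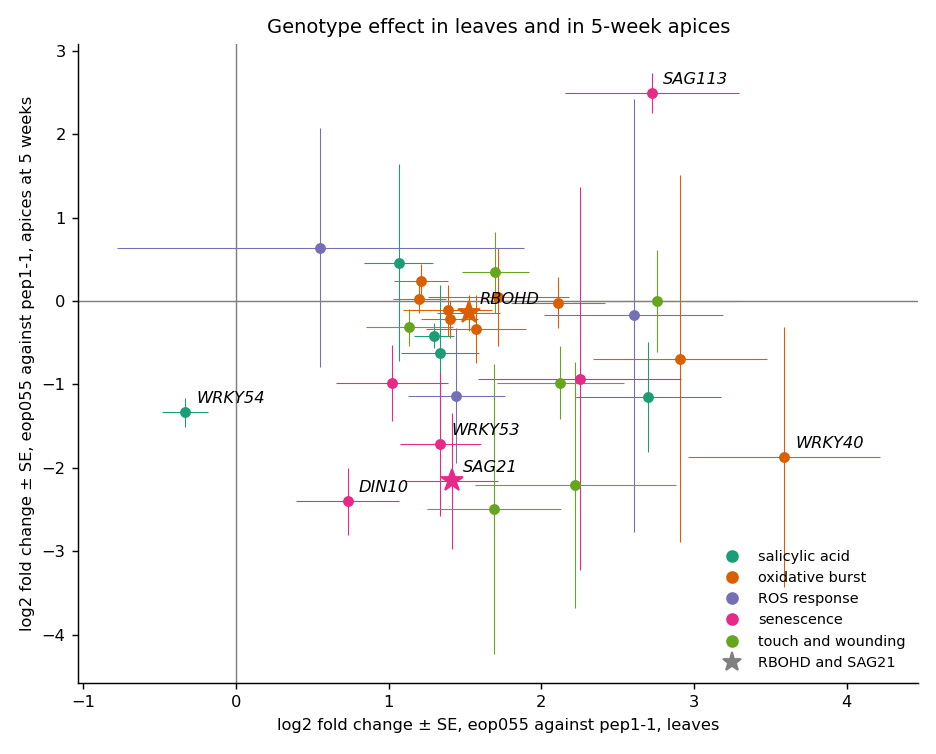
Log2 fold change with SE, eop055 over pep1-1, in leaves (x axis) and in apices at 5 weeks (y axis) for 30 named genes of the lists. The genes shown, RBOHD and SAG21 included, had more than 3 counts in each leaf group and each 5-week apex group. Colour gives the list and stars mark RBOHD and SAG21. In all, 22 lie at higher values in leaves and lower values in apices and 7 are higher in both. These counts go by sign alone, and no share over all genes was formed for them. The plotted genes carried names because the authors had called them in some comparison of these libraries, so their signs are not independent of that choice. Of the plotted genes, only SAG113, WRKY54 and DIN10 were called in 5-week apices. RBOHD lies near 0 on the y axis and SAG21 at -2.15.

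In apices at 3 weeks the same genotype comparison was made at the younger age. None of PR1, RBOHD and SAG21 was called by edgeR, in a comparison in which 3.68% of all genes tested were called. Without adjustment, none of them had an edgeR p under 0.05, a threshold for which the share of all genes was not counted. DESeq2 called none of them either. NAP was at or under the floor of 3 counts in both genotypes, so it could not be called. PR1 had 3, 16 and 8 counts in eop055 apices, against 2, 0 and 1 counts in pep1-1 apices. All eop055 libraries were above all pep1-1 libraries, as for 13.6% of all genes tested, and the sums of 27 and 3 counts (eop055 and pep1-1) gave a ratio of 9.35 with an exact 95% counting interval of 2.88 to 48.2. That interval covers counting error only, and the test over libraries did not call the gene (edgeR adjusted p = 0.599). Leaving out single libraries moved the ratio between 5.83, without eop055 apex replicate 2, and 19.7, without pep1-1 apex replicate 1. PR2 had 33, 108 and 55 counts in the eop055 apices, against 13, 5 and 9 counts in the pep1-1 apices, with the same order of eop055 replicates as PR1, and was not called (log2 fold change 2.89 ± 1.01 SE, edgeR adjusted p = 0.208).

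SAG21 had 110, 285 and 170 counts in eop055 apices at 3 weeks, against 134, 109 and 206 counts in pep1-1 apices. The values were 7.49, 19.5 and 13.3 CPM in eop055 and 10.3, 7.52 and 12.7 CPM in pep1-1, and the groups overlapped (log2 fold change 0.39 ± 0.39 SE, edgeR adjusted p = 0.722). RBOHD had 40.3, 46.9 and 44.6 CPM in eop055, against 38.6, 36.2 and 41.7 CPM in pep1-1 (log2 fold change 0.18 ± 0.21 SE, edgeR adjusted p = 0.78). NAP had 2 counts in eop055 replicate 2 and none in the other 5 libraries. For PR1, RBOHD and SAG21, replicate 2 was the highest of the eop055 apices at 3 weeks. The share of all genes with that replicate highest was not counted. In the lists, GSTF2, a glutathione transferase gene, was higher in eop055 (log2 fold change 2.13, edgeR adjusted p = 0.0101) and JAZ10 was lower (-0.90, edgeR adjusted p = 0.031), and the other genes were not called. The GSTF2 call was lost with only the 3-week apices fitted (edgeR adjusted p = 0.149) and without pep1-1 replicate 2, pep1-1 replicate 3 or eop055 replicate 2 (edgeR adjusted p 0.0507 to 0.0686). JAZ10 was not called in the fit with a replicate block (edgeR adjusted p = 0.0523) or without any single library other than pep1-1 replicate 1 (edgeR adjusted p 0.078 to 0.141). Alternatives also added calls. In 5 of 9 other settings with all libraries kept, and in 1 of 6 leave-one-out fits, 1 oxidative burst gene was called higher. In 3 of the 9 settings 1 salicylic acid gene was called higher. In 1 of the 9 and 1 of the 6, 1 salicylic acid gene was called lower. In 1 of the 6, 1 senescence gene was called higher.

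Between 3 and 5 weeks the apices of each genotype were compared over age. SAG21 was lower at 5 weeks in both genotypes. In eop055 apices it averaged 0.681 ± 0.522 CPM at 5 weeks and 13.4 ± 6.02 CPM at 3 weeks (SD, n = 3 each), a log2 fold change of -4.30 ± 0.61 (SE; edgeR adjusted p = 0.000144). In pep1-1 apices it averaged 3.10 ± 0.604 CPM at 5 weeks and 10.2 ± 2.59 CPM at 3 weeks (SD, n = 3 each), a log2 fold change of -1.75 ± 0.50 (SE; edgeR adjusted p = 0.0146). Genes called lower at 5 weeks made up 19.4% of all genes tested in eop055 and 20.3% in pep1-1, of 35.9% and 38.9% called in either direction. In both genotypes all 5-week libraries lay below all 3-week libraries, as for 25.5% of genes tested in eop055 and 26.5% in pep1-1. In pep1-1 the call was lost without 5-week replicate 1 (edgeR adjusted p = 0.0612) or 3-week replicate 3 (edgeR adjusted p = 0.0545). In eop055 the level was 32.1-fold lower without 5-week replicate 1, against 19.7 with all libraries. The difference between the genotypes in this change was -2.55 ± 0.90 on the log2 scale and was not called (SE; edgeR adjusted p = 0.0991), while DESeq2 called it (-2.59, DESeq2 adjusted p = 0.00158). Without eop055 5-week replicate 1 it was -3.25 (edgeR adjusted p = 0.0989), in a comparison in which edgeR called 10.6% of all genes tested.

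RBOHD did not pass the test over age, with a log2 fold change of -0.25 ± 0.21 in eop055 (SE; edgeR adjusted p = 0.385) and 0.07 ± 0.21 in pep1-1 apices (SE; edgeR adjusted p = 0.822). Fitted on the eop055 apices alone, the first of these was called at the same size (-0.25, edgeR adjusted p = 0.0157). PR1 was at 0 counts in eop055 apices at 5 weeks and at 27 counts over the 3 libraries at 3 weeks, at least 9.87-fold lower at 5 weeks by a floor of 3 counts over the group. edgeR did not call that difference (adjusted p = 0.188) and DESeq2 did (adjusted p = 0.000216); the bound was 6.16 without 3-week replicate 2 and 6.37 without 5-week replicate 2. In pep1-1 apices PR1 had 0 counts at 5 weeks and 3 at 3 weeks, too few to form a fold.

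**Figure D5:**
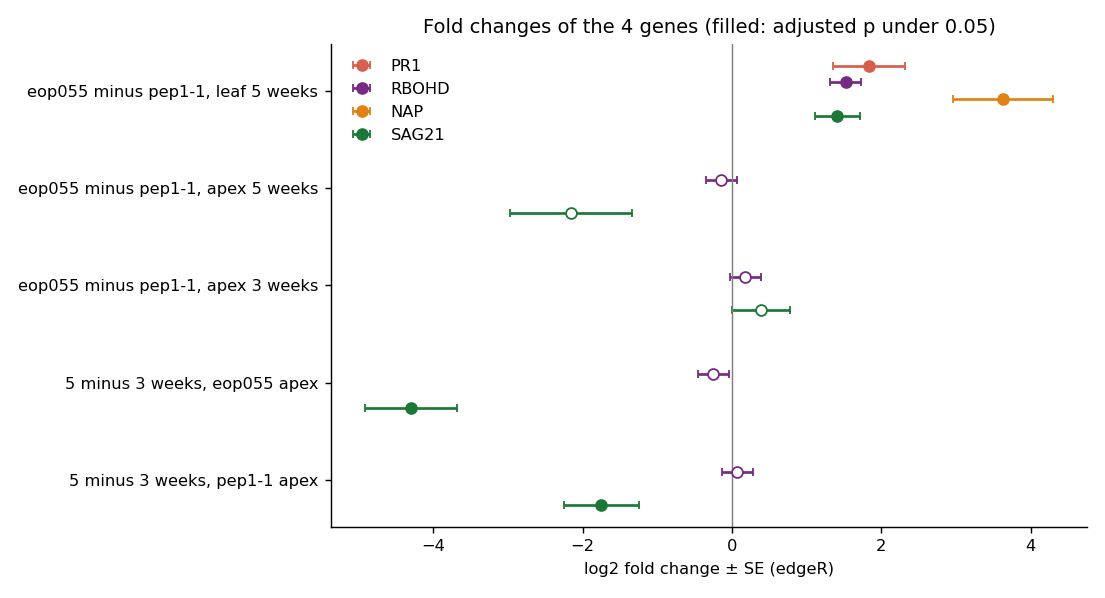
Log2 fold change with SE of RBOHD and SAG21 in 5 comparisons and of PR1 and NAP in leaves, where neither genotype was at 0; filled symbols have an edgeR adjusted p under 0.05. SAG21 is filled at 1.41 in leaves and at -4.30 and -1.75 over age, and RBOHD is filled only in leaves at 1.53.

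Leaves were compared with apices of the same age and genotype at 5 weeks. This contrast moves most genes: 83.2% of all genes tested were called in eop055 and 80.3% in pep1-1, with 39% and 37.3% called higher in leaves. SAG21 was higher in leaves by 8.80 ± 0.51 on the log2 scale in eop055 (SE; edgeR adjusted p = 1.76e-09) and by 5.23 ± 0.43 in pep1-1 (SE; edgeR adjusted p = 9.15e-08). PR1, at 0 in these apices, was at least 1153-fold higher in leaves in eop055 and at least 250-fold in pep1-1. For NAP the bounds were 61.4-fold in eop055 and 3.84-fold in pep1-1. Each bound used the floor of 3 counts over the apex group and took the leaf counts as exact, only 9 for NAP in pep1-1. NAP passed the filter on low counts only through eop055 leaves. In pep1-1 its call was lost in 2 of 7 other settings with all libraries kept and in 3 of 6 leave-one-out fits. The SAG21 fold in eop055 was 724 without apex replicate 1 and 236 with library totals in place of TMM factors, against 446; in pep1-1 it was 21.7 with library totals, against 37.6. In eop055 the PR1 bound fell to 725 without leaf replicate 3 and 745 without apex replicate 2, and the NAP bound to 39.9 and 39.6 without the same libraries. In pep1-1 the PR1 bound fell to 145 without apex replicate 1, and the NAP bound lay between 2.22, without apex replicate 1, and 5.77, without leaf replicate 1.

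RBOHD was higher in leaves by 2.14 ± 0.21 in eop055 (SE; edgeR adjusted p = 3.04e-07; 1.21 with library totals) and was not called in pep1-1, at 0.47 ± 0.21 (SE; edgeR adjusted p = 0.0568). The pep1-1 value was called with RLE scaling (0.55), with DESeq2 (0.55), with only the 2 groups fitted (0.51) and without robust dispersions (0.47; adjusted p 1.16e-05 to 0.031 over the 4). With library totals in place of TMM factors it was -0.33 and was not called, and the median over all genes then stood at -0.91, against -0.12 with TMM. Ordered by group mean, RBOHD stood at 163 CPM in eop055 leaves, 56.4 in pep1-1 leaves, 43.9 in eop055 apices at 3 weeks, 40.9 in pep1-1 apices at 5 weeks, 38.8 in pep1-1 apices at 3 weeks and 37.0 in eop055 apices at 5 weeks. None of the genotype or age comparisons among the 4 apex groups was called.

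Profiles were compared among 1380 candidate genes, which carried names because the authors had called them in some comparison of these libraries. Near profiles are therefore descriptions, and the median candidate is no neutral baseline. The profile of 6 group means most like that of RBOHD was that of MKK5, a kinase of the immune MAP kinase cascade. Its root mean square difference was 0.0605 on the centred log2 CPM scale, followed by COBL8 at 0.0835 and MAPKKK7 at 0.107. The median candidate stood at 1.095. MKK5 had 98.8, 129 and 42.9 CPM in eop055 leaves, against 32.1, 35.6 and 35.4 CPM in pep1-1 leaves, and its order of eop055 replicates was that of RBOHD. For PR1 the nearest profiles were LECRK-VI.2, a lectin receptor kinase gene, at 0.239, AT1G07160 at 0.284 and PME17, a pectin methylesterase gene, at 0.354 (median candidate 2.71). For NAP they were AT4G37070 at 0.203, AT1G27100 at 0.326 and EXO at 0.336 (median 1.30). For SAG21 they were less close: NIA2, a nitrate reductase gene, at 0.469, CYP707A3, an abscisic acid hydroxylase gene, at 0.504 and AT1G78820 at 0.609 (median 2.28). These distances are over 6 groups that share their libraries. For PR1 and SAG21 most of the profile lies in the step between leaves and apices. For RBOHD and NAP the largest step lies between eop055 leaves and all other groups. RBOHD had a mean log2 CPM of 7.27 in eop055 leaves, 5.82 in pep1-1 leaves and 5.21 to 5.46 in the apex groups. For NAP these were 1.88, -1.3 and -2.64 to -2.34.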

How the data were processed

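Messenger RNA was enriched by poly(A) selection (input 1 µg), prepared as strand-marking libraries and sequenced as 100-base single reads, per the labels' protocols. The deposited table holds raw read counts per gene; the tools listed in the submitters' processing notes are DESeq, DESeq2, STAR and HTSeq 0.5.4p1. No source used here gives the build, the annotation or the strand setting, so counts of overlapping or antisense genes and of near-identical copies are uncertain. The authors' deposited lists of changed genes were used only to pair IDs with loci (1399 IDs with 1 count row, of 1401 with a locus and 1816 in all), and gene symbols were then assigned by Arabidopsis locus. The 5 summary entries were left out: reads outside genes took 7.76 to 16.6% and ambiguous reads 2.01 to 3.60% per library.

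The analysis used edgeR 4.0.16, with limma 3.58.1, under R 4.3.3: filterByExpr with the 6 groups (21275 genes kept), TMM factors, 1 fit of 6 group means over the 18 libraries with robust dispersions, and the quasi-likelihood F test with Benjamini-Hochberg adjustment; an adjusted p under 0.05 was called. The test was tried on simulated counts. The chi-square per gene between replicates ran over 1.51 to 26.2 and no pair was identical; the lowest was for pep1-1 leaf replicates 2 and 3. Library sizes limit precision for genes near 1 CPM, where a floor of 3 counts over a group or an exact Clopper-Pearson 95% interval was used.

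The 4 genes and all lists were chosen with earlier results of these data known. The text names the 4 genes, up to 4 called members of each list with the smallest adjusted p, any member needed to complete a count of 5 or fewer, and the 3 named genes nearest to each in profile (root mean square difference of centred group means of log2 CPM, prior count 2). PR2 in apices at 3 weeks and CPM values of MKK5 were added after their values were seen. Alternatives were RLE and upper quartile scaling, library totals (added after seeing the data), no filter, a stricter filter (50 counts in 3 libraries), fitting the compared groups alone, DESeq2 1.42.0, no robust dispersions, the replicate number as a block, and leaving out each library. Figures were drawn with matplotlib 3.10.9.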

Additional observations from a re-analysis of the deposited data

Results flagged for a closer look

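The genotype effect on RBOHD differed between leaves and apices at 5 weeks by 1.67 on the log2 scale (leaf minus apex), as tested by an interaction term in the edgeR fit (adjusted p = 0.00167). For SAG21 the same difference was 3.57 (edgeR adjusted p = 0.0113), with eop055 above pep1-1 in every leaf library and below it in every 5-week apex library. The authors had listed RBOHD for its leaf difference and SAG21 for its leaf and its apex difference, so these tests are not independent of how the genes were named. The groups hold 3 libraries each, so no single library was tested as standing apart.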

How the results depend on the processing

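Of 26 results on the 4 genes, 16 kept their direction and their side of the threshold under every alternative tried; over all 26, 383 alternative values did so, 13 passed the threshold anew, 11 no longer passed it and 1 reversed. The cause was not tested for any of these. With only the groups compared in the fit, the genes called numbered 3424 of 5662 in leaves and 1712 against 783 in 3-week apices, PR1 in leaves had 1.84 (log2; edgeR adjusted p = 0.117), SAG21 in 5-week apices -2.17, RBOHD over age -0.25 in eop055 and -0.33 for the difference of the genotypes (edgeR adjusted p = 0.0442), and RBOHD leaf against apex in pep1-1 0.51. That last result was called there and also with RLE scaling (0.55), without robust dispersions (0.47) and with DESeq2 (0.55), and was -0.33, not called, with library totals. Without robust dispersions SAG21 had -2.15 in 5-week apices and -2.55 for the difference of its change with age. DESeq2 gave 3.67 for NAP in leaves, 4.45 for NAP leaf against apex in pep1-1 (4.51 with library totals; fitted values of a group at 0), -5.79 for PR1 over age in eop055, and -2.20 and -2.59 for the 2 SAG21 results. Leaving out single libraries gave 359 to 592 called genes in 3-week apices, 1.20 to 2.16 for PR1 in leaves, 4.43 to 5.58 for NAP leaf against apex in pep1-1, -1.93 to -1.54 for SAG21 over age in pep1-1, -2.86 to -1.73 for SAG21 in 5-week apices and -3.25 to -2.13 for its difference over age, which was called without eop055 3-week apex replicate 1 (edgeR adjusted p = 0.0465). GSTF2 in leaves ran over -0.17 (reversed, without eop055 replicate 3) to 1.48. Genes called higher made up 56.3% of calls in leaves, against 34.9% with upper quartile scaling and 36.2% with library totals. Same-numbered libraries did not deviate together, and the replicate block changed no call of the 4 genes (5647 genes called in leaves with it); among the list genes it ended the JAZ10 call in 3-week apices and called ERF109 (2.69) and SEN1 (1.02) in leaves. Depth limits NAP in pep1-1 leaves (0 to 5 counts per library), PR1 in apices (0 to 16) and SAG21 in eop055 apices at 5 weeks (3 to 18).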
